A study of Mus musculus with 4 samples.

Results

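Transcripts of S100 calcium-binding proteins, annexins, galectins and their partners were followed on 4 expression arrays of sorted mouse T cells. The set was defined by name as S100a4, S100a6, S100a10, S100a11, Anxa1, Anxa2, Lgals1, Lgals3, Crip1 and Ahnak, and took every probe set that the platform annotation gives to one of these symbols alone. This gave 16 of 22626 non-control probe sets, for 9 of the 10 genes and of 12393 named genes in all. S100a11 shared its probe set with other symbols, so no value is given for it. CD4 and CD8 T cells were sorted from the spleens of C57BL/6 mice labelled Gfi1 knockout and wildtype. All 4 groups were untreated and described as CD44 low. The 4 groups were CD4 knockout, CD4 wildtype, CD8 knockout and CD8 wildtype, each with 1 array on which RNA of 2 mice was pooled. The sources used here do not give the age of the mice, the deleted part of Gfi1 or the cells in which it was deleted. The stated purpose was to set naive Gfi1-deficient cells beside wildtype cells. The Gfi1 protein represses transcription and is needed in several blood lineages.

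S100 proteins are small EF-hand proteins that bind calcium and then engage partner proteins. Annexins bind membrane phospholipids when calcium is present, and S100A10 forms a stable complex with annexin A2, to which the very large scaffold protein AHNAK can bind at the plasma membrane. Galectins bind beta-galactoside sugars on cell surface glycoproteins and can act inside the cell as well. In T cells, several of these genes are known to be more active in effector and memory cells than in naive cells.

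The array values bear on the labels as follows. Cd3e, of the T cell receptor complex, read between 6193 and 7468 on all 4 arrays. Cd4 (5470 and 5901) and Cd8a (16639 and 15920) were each bright on the arrays of their own subset and below the floor on the others. Cd8b1 was bright on knockout and wildtype CD8 (25715 and 26222). It was also above the floor on the CD4 arrays, at 970.5 on knockout and 312 on wildtype. The floor was a signal of 93.9, the 40th percentile of all values, to which lower signals were raised. Cd44 did not match the shared description: it read 196 on knockout CD4 and 252 on knockout CD8, but 8136 on wildtype CD4 and 5740 on wildtype CD8. The sample titles also differ by a letter, N for the arrays labelled knockout and M for those labelled wildtype, which the labels do not explain. Gfi1 itself was not lower on the arrays labelled knockout (2891 and 2447 against 2272 and 1158). Labelled genotype, title letter and Cd44 signal therefore cannot be told apart in any comparison, and every direction below is between arrays as labelled. With 1 array per group no spread between animals could be measured, no test was made, and the few arrays set the precision. In such bulk samples, fewer cells carrying a transcript and less transcript per cell also cannot be told apart.

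Most of the set was far lower on the arrays labelled knockout than on those labelled wildtype, whichever the subset. A difference of 2-fold or more was reached in CD4 and CD8 cells alike by S100a4, S100a6, Anxa1, Anxa2, Lgals3 and Ahnak, 6 of 9 genes. Among the 8596 genes that exceeded the floor anywhere, 2.07% were at least 2-fold lower in both. The CD4 count was 7 of 9 genes at least 2-fold lower, against 7.29% of all genes. The CD8 count was 6 of 9, against 3.99%. The median log2 difference of the 9 genes was -3.39 for CD4 and -1.89 for CD8 cells, against a median of 0 over all 8596 genes in each. The CD4 median was -1.64 with a floor at the 60th percentile, and averaging each gene's probe sets gave -1.52 for CD4 and -1.004 for CD8. S100a10, Lgals1 and Crip1, which read above 10000 on every array, showed the smallest differences. The genes were chosen with earlier results of these arrays known, so these counts describe the arrays and are no independent evidence.

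**Figure D1:**
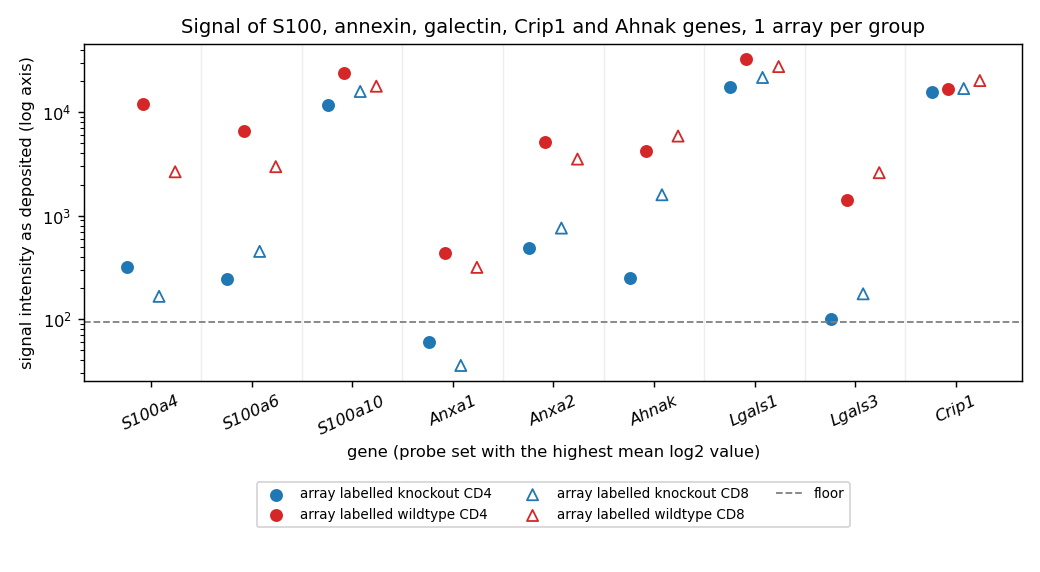
Signal intensity as deposited (log axis) of the 9 measured genes on the 4 arrays, blue for labelled knockout and red for labelled wildtype, filled circles for CD4 and open triangles for CD8; the dashed line is the floor of 93.9. For 6 genes the red point lies at least 2-fold above the blue one in CD4 and CD8 cells alike, as for 2.07% of all genes above the floor anywhere. S100a10, Lgals1 and Crip1 stay above 10000 throughout.

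The sequences before the transcription starts of S100a4 and S100a6, which lie in the same cluster of S100 genes and were low on the same arrays, are shown with those of both annexins and of Crip1, the gene whose CD4 signals lay closest together. Each holds the 250 bases before the RefSeq start, 5′ to 3′, and capitals mark matches to TATAAA or to TGANTCA, the AP-1 type motif.
S100a4, GRCm38.p6 chr3:90603520-90603769, plus strand: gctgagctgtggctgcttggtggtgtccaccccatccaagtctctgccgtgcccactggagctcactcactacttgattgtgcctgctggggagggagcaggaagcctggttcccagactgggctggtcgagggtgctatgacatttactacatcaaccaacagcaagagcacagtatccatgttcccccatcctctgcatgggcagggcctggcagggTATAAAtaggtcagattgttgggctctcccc
S100a6, GRCm38.p6 chr3:90612644-90612893, plus strand: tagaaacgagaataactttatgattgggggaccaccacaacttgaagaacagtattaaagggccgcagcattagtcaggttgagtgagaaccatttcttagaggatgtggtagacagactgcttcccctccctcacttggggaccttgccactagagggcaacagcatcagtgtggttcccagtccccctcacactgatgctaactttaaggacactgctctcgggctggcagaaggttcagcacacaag
Anxa2, GRCm38.p6 chr9:69453433-69453682, plus strand: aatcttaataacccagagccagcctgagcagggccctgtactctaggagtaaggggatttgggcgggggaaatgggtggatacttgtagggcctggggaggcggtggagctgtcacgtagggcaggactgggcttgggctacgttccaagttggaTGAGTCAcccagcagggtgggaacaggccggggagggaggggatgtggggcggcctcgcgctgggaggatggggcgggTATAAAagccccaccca
Anxa1, GRCm38.p6 chr19:20390672-20390921, minus strand: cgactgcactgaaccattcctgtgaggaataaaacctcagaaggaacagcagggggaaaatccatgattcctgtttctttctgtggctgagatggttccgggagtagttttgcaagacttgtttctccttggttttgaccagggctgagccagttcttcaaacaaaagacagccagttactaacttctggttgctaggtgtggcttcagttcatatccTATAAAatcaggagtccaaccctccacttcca
Crip1, GRCm38.p6 chr12:113151762-113152011, plus strand: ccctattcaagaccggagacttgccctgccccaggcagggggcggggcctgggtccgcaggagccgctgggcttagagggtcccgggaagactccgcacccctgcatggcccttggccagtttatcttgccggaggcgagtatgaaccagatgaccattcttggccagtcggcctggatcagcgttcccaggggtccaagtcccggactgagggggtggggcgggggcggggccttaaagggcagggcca
TATAAA was present in 3 of the 7 windows found for the set (S100a4, Anxa2 and Anxa1), on the strand of the gene, beginning 31, 17 and 32 bases before the start. On either strand it occurs in 12.4% of 32851 windows of this length from all genes. TGANTCA was present in Anxa2, 95 bases before the start, and occurs in 6.75% of all windows. A Gfi1 type core, AATCANNGC on either strand, was found in none of the 7 and occurs in 2.87% of all. TATAAA was added to the search after the sequences had been seen, and the motifs share no bases. The windows of S100a4 and Anxa1 held 2 CpG dinucleotides each and that of S100a6 held 3, while those of Crip1 and Lgals3 held 13 each and that of Ahnak 18, with a median of 6 over all windows. Genes that were low on the arrays labelled knockout thus had both CpG-poor and CpG-rich windows. A match describes the letters and no binding was measured.

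S100a4, whose protein binds nonmuscle myosin and is linked to cell movement, gave the largest CD4 difference of the set. Its signal was 317 on the array labelled knockout CD4, 11921 on wildtype CD4, 166 on knockout CD8 and 2658 on wildtype CD8. Both wildtype-labelled arrays were above both knockout-labelled arrays. The log2 difference was -5.23 (37.6-fold) in CD4 and -4.00 in CD8 cells, the third lowest of 7143 and the eighth lowest of 7195 genes measured on both arrays of each pair. With a floor at the 60th percentile, where both knockout-labelled arrays lie, the CD8 bound was -2.56.

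S100a6, or calcyclin, came next in CD4 cells. It read 244 on knockout CD4, 6654 on wildtype CD4, 451 on knockout CD8 and 2979 on wildtype CD8, so that the labelled genotypes again did not overlap. The difference was 27.2-fold in CD4 cells, the fifth lowest, and 6.60-fold in CD8 cells, at rank 23 from the lowest.

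S100a10, the annexin A2 partner also called p11, stayed high on all arrays. It read 11851 on knockout CD4, 24009 on wildtype CD4, 15884 on knockout CD8 and 17871 on wildtype CD8. The knockout-labelled arrays were the lowest pair, but in CD8 cells the arrays were nearly level. The difference was 2.03-fold in CD4 and 1.13-fold in CD8 cells, log2 values of -1.02 and -0.17. With arrays centred on their medians these became -0.70 and 0.04, so the CD4 value lost its place beyond 2-fold and the CD8 direction turned. A further probe set gave -1.13 and -0.06.

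Annexin A2, the membrane partner of S100A10, was low on the same arrays as S100a4. Its leading probe set read 491 on knockout CD4, 5148 on wildtype CD4, 759 on knockout CD8 and 3527 on wildtype CD8. Each wildtype-labelled array was more than 4-fold above each knockout-labelled one. The differences were 10.5-fold in CD4 and 4.65-fold in CD8 cells. A further Anxa2 probe set was much dimmer, at 100 against 225 in CD4 cells and below the floor against 163 in CD8 cells, with log2 differences of -1.17 and -0.79 or lower. The third lay below the floor on all 4 arrays and gives no fold. Averaging the Anxa2 probe sets brought the log2 difference from -3.39 to -1.52 in CD4 cells and from -2.22 to -1.004 in CD8 cells. The third probe set entered that average as level.

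Anxa1, which encodes an annexin known for restraining inflammation through formyl peptide receptors, was above the floor on the wildtype-labelled arrays alone. It read 431 on wildtype CD4 and 317 on wildtype CD8, and lay below the floor on both knockout-labelled arrays, at 59.9 and 35.6. It was therefore at least 4.59-fold lower in CD4 and at least 3.37-fold lower in CD8 cells. No ordering of the arrays below the floor can be read.

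Ahnak, the scaffold gene, showed the widest spread between the knockout-labelled arrays. Its leading probe set read 248.5 on knockout CD4, 4242 on wildtype CD4, 1593 on knockout CD8 and 5890 on wildtype CD8. The labelled genotypes did not overlap, although knockout CD8 lay well above knockout CD4. The difference was 17.1-fold in CD4 and 3.70-fold in CD8 cells. The other 3 Ahnak probe sets gave little signal: 2 lay below the floor on all arrays and 1 exceeded it on wildtype CD8 only, at 146. Averaging all 4 probe sets brought the CD4 log2 difference from -4.09 to -1.02 and the CD8 one from -1.89 to -0.63, below 2-fold. Probe sets at the floor on both arrays of a pair enter this average as level, which by itself shrinks the difference.

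Both galectins are secreted as well as intracellular. Lgals3, the chimera-type galectin that macrophages also make in quantity, read 100 on knockout CD4, 1402 on wildtype CD4, 176 on knockout CD8 and 2606 on wildtype CD8. Knockout CD4 lay just above the floor, and wildtype CD8 was the highest array. The log2 differences were -3.80 in CD4 and -3.89 in CD8 cells, about equal in both subsets. With a floor at the 60th percentile, above both knockout-labelled signals, they became bounds of -1.64 and -2.53.

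Lgals1, a dimeric galectin that can induce death of activated T cells, was bright throughout. Its leading probe set read 17552 on knockout CD4, 32527 on wildtype CD4, 21696 on knockout CD8 and 27667 on wildtype CD8. The order of the arrays was that of Anxa2, within a range of less than 2-fold. The log2 differences were -0.89 in CD4 and -0.35 in CD8 cells, and -0.78 and -0.32 for its other probe set. After quantile normalization the CD4 value was -1.11, past 2-fold. With arrays centred on their medians the leading probe set gave -0.58 in CD4 and -0.14 in CD8 cells.

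Crip1, which encodes a small LIM-domain protein, was close to level between the labelled genotypes. It read 15646 on knockout CD4, 16766 on wildtype CD4, 16971 on knockout CD8 and 20262 on wildtype CD8. The ranges of the labelled genotypes overlapped. The log2 differences were -0.10 for CD4 and -0.26 for CD8 cells, and the CD4 direction turned to 0.21 with arrays centred on their medians.

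**Figure D2:**
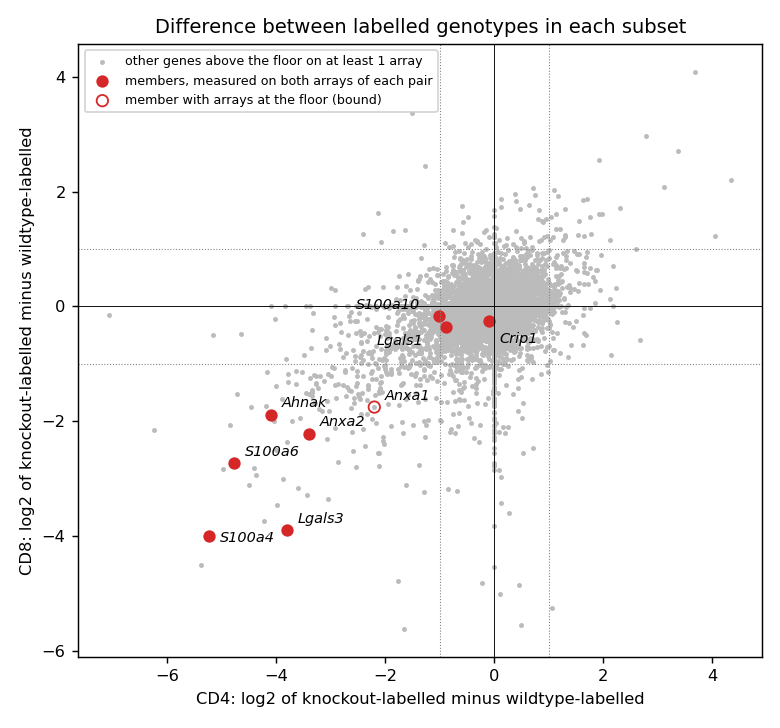
Log2 difference between labelled knockout and wildtype in CD4 (horizontal) and CD8 cells (vertical); grey points are the 8596 genes that exceeded the floor anywhere, red points are the members among them, and the open circle is Anxa1, whose value is a bound. S100a4, S100a6, Lgals3, Anxa2, Ahnak and Anxa1 lie beyond the dotted 2-fold lines in both subsets, and S100a10, Lgals1 and Crip1 lie within or next to the main cloud.

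The size of the difference varied with the subset for some members. For the 8 genes measured on every array, the CD8 log2 difference minus the CD4 one was 2.21 for Ahnak, 2.05 for S100a6, 1.23 for S100a4 and 1.17 for Anxa2. With averaged probe sets Ahnak gave -1.02 for CD4 against -0.63 for CD8. Its probe sets at the floor enter that average as level, so it cannot show whether the subset difference holds. Anxa2 gave -1.52 against -1.004 in that setting, closer together than with its leading probe set, and it too has a probe set at the floor throughout. The subset difference was 0.85 for S100a10 and 0.54 for Lgals1, and -0.09 for Lgals3 and -0.16 for Crip1. Lgals3, strongly lower, and Crip1, near level, thus differed about alike in both subsets, for Lgals3 with the floor as set here. The median was 1.01 for the 8 genes and -0.02 over the 6882 genes that exceeded the floor everywhere, of which 4.27% reached 1. It was not particular to the members. The lists of Cd44 and memory cell companions and of cell cycle genes, read below, had medians of 1.35 and 2.12. Other genes of the family lists had a median of 0.22. These values were not tested, since each rests on the same 4 arrays.

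The same 4 arrays can be read as CD8 against CD4 within a labelled genotype. Between the arrays labelled wildtype, S100a4 was 4.49-fold and S100a6 2.23-fold lower in CD8 cells, and no other member reached 2-fold, so 2 of 9 did against 8.1% of all genes. Lgals3 was 1.86-fold higher in CD8 cells. Between the arrays labelled knockout, Ahnak was 6.41-fold higher in CD8 cells and was the 1 member past 2-fold, against 3.21% of all genes. With averaged probe sets its log2 difference was 0.67, below 2-fold, but all its dimmer probe sets were at the floor on both of these arrays. S100a4 was 1.91-fold lower there, and S100a6 was 1.85-fold higher. S100a6, S100a10, Anxa2 and Lgals1 were lower in CD8 than in CD4 cells on the wildtype-labelled arrays and higher on the knockout-labelled ones, whereas Lgals3, Ahnak and Crip1 were higher and S100a4 lower in CD8 cells on both. With a floor at the 60th percentile, S100a4 and Lgals3 lay at the floor on both knockout-labelled arrays, and S100a6 was level between them.

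**Figure D3:**
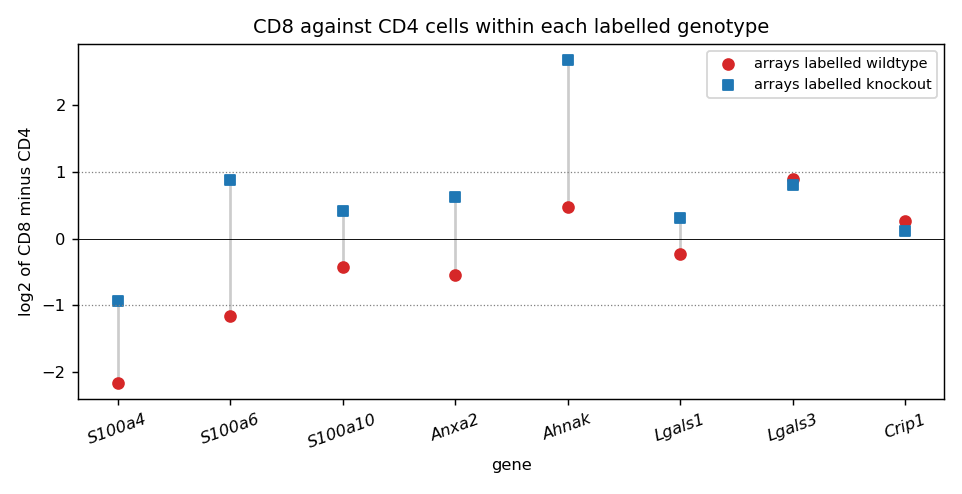
Log2 of CD8 minus CD4 signal for the 8 members measured on every array, red circles for the arrays labelled wildtype and blue squares for those labelled knockout; dotted lines mark 2-fold. S100a4 is lowest on both pairs, at -2.17 and -0.94, and Ahnak on the knockout-labelled pair is highest, at 2.68.

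The other genes of the same families mostly did not share these differences. Of 14 further genes in the S100 list, 11 had a probe set of their own and 6 were above the floor on at least 1 array. The 6 include S100pbp, which encodes an S100-binding protein rather than an S100 protein. None of the 6 reached 2-fold between the labelled genotypes in either subset, but S100a1, S100a3, S100a5 and S100a16 lay below the floor on an array of at least 1 pair and have only lower bounds there, such as 1.75-fold for S100a1 in CD8 cells. S100a13, whose protein takes part in export of growth factors that lack a signal peptide, read 4553 on knockout CD4, 6011 on wildtype CD4, 5284 on knockout CD8 and 4904 on wildtype CD8. S100a5, which lies between S100a4 and S100a6 in the RefSeq gene order, read 144 on wildtype CD4 and was below the floor on the other 3 arrays. S100a8 and S100a9, the calprotectin genes of neutrophils and monocytes, were below the floor on all 4.

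Of 9 further annexin genes with a probe set, 5 were above the floor and Anxa4 alone passed 2-fold in CD4 and CD8 cells. Anxa3 lay below the floor on both knockout-labelled arrays, so its values of 1.25-fold (CD4) and 1.58-fold (CD8) lower are lower bounds. Anxa4, whose annexin binds membranes as its relatives do, read below the floor on knockout CD4 against 401 on wildtype CD4, and 109 against 295 in CD8 cells, at least 4.27-fold and 2.70-fold lower. Anxa5, the annexin used to stain dying cells, read 3497 on knockout CD4, 3659 on wildtype CD4, 2636 on knockout CD8 and 2569 on wildtype CD8, nearly level within each subset. Anxa6 and Anxa7 had log2 differences between -0.44 and -0.19, and that of Anxa7 in CD4 cells turned to 0.12 with arrays centred on their medians and to 0.04 with averaged probe sets.

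Of 8 further genes of the galectin list with a probe set, 7 were above the floor. They include Lgals3bp, which encodes a galectin-3 binding protein rather than a galectin and is also counted among the partners below. Lgalsl, a galectin-like gene, was at least 3.96-fold lower on knockout CD4 and 1.90-fold lower on knockout CD8. Lgals9, the tandem-repeat galectin that can bind TIM-3, was near level at 6746 against 5724 in CD4 and 5413 against 5507 in CD8 cells. Of 11 CRIP and related LIM-only genes, 7 were above the floor. Crip2 and Fhl2 were 2.96-fold and 2.62-fold lower in CD4 cells, and 1.36-fold and 1.60-fold lower in CD8 cells. The 25 genes of the family lists above the floor had a median log2 difference of -0.31 in CD4 and -0.22 in CD8 cells. At least 2-fold lower were 4 and 1 of them, against 7.29% and 3.99% of all genes. At least 2-fold higher were 0 in either subset (1.95% and 1.14%). The CD8 count was thus near the background share. Some of the 25, such as Anxa3 and Lmo2, lay below the floor on both knockout-labelled arrays and have only lower bounds. With a floor at the 60th percentile, Anxa4, Lgalsl, Crip2 and Fhl2 lay at the floor on all 4 arrays and none of these calls was left.

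**Figure D4:**
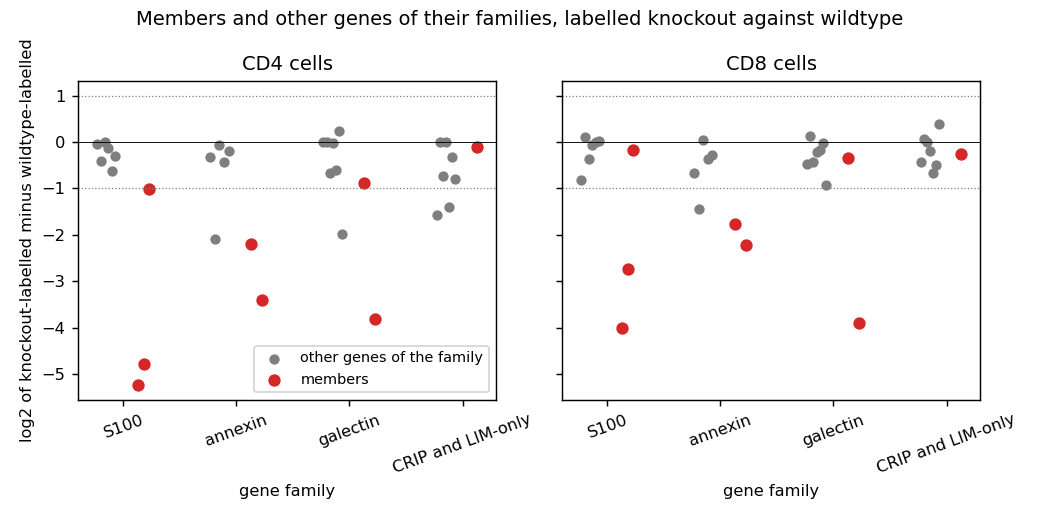
Log2 difference between labelled knockout and wildtype by gene family, in CD4 (left) and CD8 cells (right). Red points are members and grey points are other genes of the family lists that exceeded the floor anywhere, and dotted lines mark 2-fold. S100a4, S100a6, Anxa2 and Lgals3 lie below every grey point of their families in both panels, and Anxa4 is the grey point below -1 in both.

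Among 23 listed partners, targets and receptors with a probe set, 13 were above the floor, and Plaur alone reached 2-fold in either subset. With arrays centred on their medians, Cd7 passed 2-fold in CD4 cells as well (log2 1.12). Plaur encodes the urokinase receptor of the plasminogen system, to which S100A10 and annexin A2 also belong. It read 301 on knockout CD4 against 97.6 on wildtype CD4, and 468 on knockout CD8 against 129 on wildtype CD8. It was thus higher on the knockout-labelled arrays, 3.08-fold in CD4 and 3.64-fold in CD8 cells, opposite to S100a4 and Anxa2, and 0.349% of all genes were at least 2-fold higher in both. With a floor at the 60th percentile neither call was left (log2 0 in CD4 and 0.06 in CD8 cells). Plat, Plau and Plg, which encode plasminogen activators and plasminogen, lay below the floor on every array other than knockout CD8, where Plat read 96.4. Myh9, the heavy chain of the myosin that S100A4 binds, was near level in CD4 cells (13317 against 12770) and read 10465 against 14633 in CD8 cells. Ptprc, which encodes CD45, a surface protein that galectin-1 binds, was level at 29718 to 32076 on all arrays. Cd7, another galectin-1 receptor gene, was 1.75-fold higher in CD4 and 1.54-fold higher in CD8 cells on the arrays labelled knockout. Fpr2, a receptor of annexin A1, was below the floor on all 4.

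Markers of other cells were read beside the members. Of 11 myeloid genes with a probe set, 3 were above the floor on each knockout-labelled array and 5 on each wildtype-labelled one. Their summed signal was 830 on knockout CD4, 785 on wildtype CD4, 669 on knockout CD8 and 1242 on wildtype CD8. Of these genes, Cd14, Mpo, S100a8 and S100a9 lay below the floor on all 4 arrays. Csf1r (193 to 238) and Fcgr3 (108 to 231) were above it on all 4. Fcgr3 was 2.13-fold higher on knockout CD4 than on wildtype CD4, and near level in CD8 cells. Lyz2, the lysozyme gene of macrophages, was highest on wildtype CD8, at 285, as was Cd68, at 342. The summed signal of 8 genes of MHC class II and dendritic cells was 48471 on wildtype CD8 and between 1536 and 4342 on the other arrays, with Itgax at 1003 on wildtype CD8. Lgals3, Ahnak and Crip1 were highest on that array too, and the part of such cells in their CD8 values was not tested. In CD4 cells the median log2 difference of the MHC class II and dendritic cell genes was 0.06. Some B cell and natural killer cell genes were also lower on the knockout-labelled arrays. Of 5 B cell genes with a probe set, Cd79a, Ms4a1 and Pax5 lay below the floor on all arrays, and the summed signal was 253 on knockout CD4, 1488 on wildtype CD4, 852 on knockout CD8 and 1545 on wildtype CD8. Cd22, an inhibitory receptor of B cells, was 7.30-fold lower in CD4 and at least 6.55-fold lower in CD8 cells. Cd79b was at least 3.25-fold lower in CD4 cells but near level in CD8 cells (737.5 against 759.1). Of 5 natural killer cell genes 4 were above the floor, with Ncr1 below it, and the summed signal was 3877 on knockout CD4, 4976 on wildtype CD4, 16111 on knockout CD8 and 16065 on wildtype CD8. Klrd1, which was near level between the labelled genotypes, made up most of that sum. Klrk1, which encodes the receptor NKG2D, had differences of at least 18.5-fold (CD4) and of 13.4-fold (CD8) in the members' direction, and Tyrobp, a signalling adaptor, was 2.45-fold and at least 9.40-fold lower. Of 5 red cell and platelet genes Itga2b alone was above the floor (257 to 438 summed), 2.13-fold lower in CD4 and 1.23-fold higher in CD8 cells. The part of such cells in the members' differences was not tested.

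Cell cycle genes differed in the same direction as the members. All 9 measured were at least 2-fold lower in CD4 cells on the knockout-labelled array, against 7.29% of all genes. In CD8 cells 8 of 9 were, against 3.99%. The median log2 differences were -3.72 and -1.52. Their summed signal was 2212 on knockout CD4, 24645 on wildtype CD4, 4176 on knockout CD8 and 11567 on wildtype CD8. The part of Cd44 level and of dividing cells in the members' differences was not tested. Of 7 measured genes on a list of Cd44 and memory cell companions, 5 fell short of wildtype by 2-fold or more on both knockout-labelled arrays. Of all genes, 2.07% did. The medians over the list were -3.80 in CD4 and -2.16 in CD8 cells. Beside Cd44, the 5 were the chemokine receptor gene Cxcr3 (log2 -6.24 and -2.16), the chemokine gene Ccl5 (-4.98 and -2.83), the integrin gene Itgb1 (-3.80 and -2.36) and the cytokine receptor gene Il2rb (-3.17 and -1.82). The remaining genes, Ccr7, the lymph node homing receptor, and Il7r, the IL-7 receptor chain, ran the other way, at 1.70 and 0.84 in CD4 and 0.58 and 0.25 in CD8 cells.

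The non-member genes whose profile over the 4 arrays lay nearest to the median profile of the set were Ckap2, Cxcr5, Uhrf1, Fignl1 and Il18rap. Distance was the Euclidean one between log2 profiles, each centred on its own mean, and ran from 0.41 to 0.53. For comparison, the members themselves lay between 0.43 (Anxa2) and 2.79 (S100a4) from their median profile. Cxcr5, the receptor that guides cells to B cell follicles, was the nearest with all 4 arrays above the floor, at 270 on knockout CD4, 2755 on wildtype CD4, 388 on knockout CD8 and 1875 on wildtype CD8. Ckap2 acts on the mitotic spindle, Uhrf1 in maintaining DNA methylation, and Il18rap is a chain of the IL-18 receptor. With 4 arrays such likeness is a description and carries no weight for single genes.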

How the data were processed

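Affymetrix MOE430A_2.0 arrays were used, 1 per group. What the authors deposited are signal intensities on a linear scale, 1 per probe set. GCOS 1.4 and MAS5 are named in the submitters' processing notes. From the values, the 2% trimmed mean was near 1000 on each array, so arrays appear scaled to a common level, and medians ran from 189 to 235. No detection calls entered.

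Of 22690 probe sets, 64 controls were left out, 20380 had 1 symbol in the platform annotation, 691 had several (not used) and 1555 none. RefSeq (GRCm38.p6) held 20351 of the 20380 and supplied names, gene order and promoter windows. Each gene took its probe set of highest mean log2 signal. Signals were raised to the floor (93.9) before log2. A fold is a lower bound where 1 array is at the floor, and is not given where both are. Called means at least 2-fold.

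No model was fitted, since each group holds 1 array. Fold and call steps were tested on simulated data. The text names all members, list genes at least 2-fold apart in both subsets, same-family neighbours, up to 4 genes of each other list and the 5 nearest profiles. Further family and partner genes (such as S100a13, Anxa5, Anxa6, Anxa7, Lgals9, Lgalsl, Crip2, Fhl2, Lmo4, Ptprc, Cd7 and Myh9), and myeloid, B cell and memory genes beyond 4 of a list, were chosen after their values were seen. The members and lists were chosen with earlier results of these data known. Alternatives covered floor, scaling, probe set choice and fold threshold. Software was numpy 2.4.6, pandas 2.3.3 and matplotlib 3.10.9 under Python 3.11.15.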

Additional observations from a re-analysis of the deposited data

Results flagged for a closer look

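Members and family genes that differed in opposite directions under the same contrast, by at least 1.2-fold each way and with all 4 arrays above the floor, were set apart; the difference was not tested, with 1 array on each side. S100a6 was lower in CD8 than in CD4 cells on the arrays labelled wildtype (log2 -1.16) and higher on those labelled knockout (0.89). The same held for S100a10 (-0.43 and 0.42), Anxa2 (-0.55 and 0.63) and Crip2 (-0.61 and 0.51). Between the labelled genotypes, Lmo4, which encodes a LIM-only transcription cofactor, was lower on knockout CD4 (-0.79) and higher on knockout CD8 (0.39).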

How the results depend on the processing

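The 6 genes lower in both subsets were the same 6 with a floor at the 25th percentile, with log2 of the value plus 16, after quantile normalization, with arrays centred on their medians and at 1.5-fold. They were 5 with a floor at the 60th percentile (without Anxa1, then at the floor on all arrays) and with averaged probe sets (without Ahnak), and 4 at 4-fold. Without multi-transcript probe sets (_x_at, _s_at and _a_at) 7 genes remained and 4 were lower in both; the Anxa2 probe set left is below the floor. The CD4 count ran from 5 to 8 and the CD8 count from 4 to 6 over all alternatives. The count between wildtype-labelled subsets fell from 2 to 1 without multi-transcript probe sets and at 4-fold. The count between knockout-labelled subsets was 0 with averaged probe sets and 5 at 1.5-fold. Among family genes, the 1 lower in both became 3 with the lower floor, with the value plus 16 and at 1.5-fold, and 0 with the higher floor, averaged probe sets, no multi-transcript probe sets and at 4-fold. The median CD8 minus CD4 difference of 1.01 was 0.69 with the higher floor, 0.85 with the value plus 16 and without multi-transcript probe sets, 0.91 with median centring and 0.51 with averaged probe sets. Median centring brought the median log2 difference between labelled genotypes, over all genes above the floor on 4 arrays, from 0.01 to 0.32 in CD4 cells and from near 0 to 0.21 in CD8 cells. No member called at 2-fold changed direction under these alternatives. No paired analysis was possible because each group has 1 array, and no array could be left out. Signals near or below the floor limit Anxa1 and Lgals3.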
